A study of Homo sapiens with 8 samples.

Results

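The genes examined here are the core of the YAP and TAZ branch of the Hippo pathway: YAP1 and WWTR1 (which encodes TAZ), the DNA-binding partners TEAD1, TEAD2, TEAD3 and TEAD4, the kinases LATS1 and LATS2, and the target genes CCN1 and CCN2. Chromatin regions were assigned to a gene when they overlapped its RefSeq span on GRCh38, extended by 3000 bp on both sides. This gave 33 of the 55650 regions in the deposited tables: 30 of 35154 regions for RBBP4 and 3 of 20496 for P300. LATS1 held none of the RBBP4 regions, CCN2 held no region of either protein, and 8 of the 10 genes held no P300 region.

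The cells were NCI-H69, an established human line of small cell lung cancer, transfected with siRNA against CSNK2B (which encodes the regulatory subunit of casein kinase 2) or with a non-targeting control, and fixed 48 h later. RBBP4, a histone-binding subunit of deacetylase, Polycomb and chromatin assembly complexes, and P300, a histone acetyltransferase found at active enhancers and promoters, were each immunoprecipitated from both arms. The series held 8 libraries, of which the 4 immunoprecipitated ones had columns in the tables used here, and the batch label of each repeats the name of its antibody. With 1 library per antibody and arm, no difference has a replicate check, and antibody and batch cannot be told apart. The labels name 1 line and 1 non-targeting control, and neither the knockdown itself nor any transcript was measured in these tables, so the labelled cell type could not be checked against its markers.

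YAP and TAZ are transcriptional coactivators without a DNA-binding domain of their own. When LATS kinases phosphorylate them they are held in the cytoplasm or degraded, and when unphosphorylated they enter the nucleus and bind TEAD factors, which recognise a short DNA motif and carry them to genes such as CCN1 and CCN2. LATS2 is itself a YAP target and so part of a negative feedback loop. Neuroendocrine small cell lung cancer is known for low or absent YAP1 expression.

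All listed regions have a p-value under 0.05 in the authors' deposited table, so absence from them does not show that a gene had no difference. Each region is named for the arm of its peak call, which had the higher density at 35151 of the 35154 RBBP4 regions and at all 20496 for P300, so directions largely restate the arm of the peak call. The arms were read from column and region names, in which "Sample" was taken as knockdown. For RBBP4 only the initials stand in the column names, and a swap would turn every direction below. RPKM is reads per kilobase of region, scaled to a total for each library. What these totals cover is not given in the sources used here, and worked out from the steps of the values they were 1207945 reads for RBBP4 knockdown, 833181 for RBBP4 control, 946392 for P300 knockdown and 1092789 for P300 control. A log2 ratio below is that of RPKM plus 1, which understates ratios of low regions. Folds are ratios of whole reads divided by these totals, with 95% exact (Clopper-Pearson) intervals that cover counting error only. In place of a count of 0, a floor of 3 reads per library was used.

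Promoter sequence was at hand for 7 of the 10 genes, in 10 RefSeq windows that run from 250 bases before a transcription start to 50 after it. The 250 bases before the start are printed for 4 windows: the 3 that an RBBP4 region overlapped, and that of CCN2, which none overlapped and which holds most copies of the TEAD motif. Bases are written 5′ to 3′ on the strand of the gene, from RefSeq (GRCh38.p14), with GGAATG, the core that TEAD factors recognise, in capitals.
YAP1 (chr11:102110197-102110446, plus strand): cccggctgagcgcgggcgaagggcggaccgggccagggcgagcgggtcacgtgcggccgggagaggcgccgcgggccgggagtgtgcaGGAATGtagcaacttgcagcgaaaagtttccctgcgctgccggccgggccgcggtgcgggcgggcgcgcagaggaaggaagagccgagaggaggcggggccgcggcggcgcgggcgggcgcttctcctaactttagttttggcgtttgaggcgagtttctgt
WWTR1 (chr3:149658026-149658275, minus strand): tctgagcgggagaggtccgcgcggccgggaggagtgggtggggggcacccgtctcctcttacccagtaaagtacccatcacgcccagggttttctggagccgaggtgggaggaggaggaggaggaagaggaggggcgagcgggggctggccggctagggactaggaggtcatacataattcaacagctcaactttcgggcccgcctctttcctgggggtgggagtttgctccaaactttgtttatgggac
TEAD2 (chr19:49361518-49361767, minus strand): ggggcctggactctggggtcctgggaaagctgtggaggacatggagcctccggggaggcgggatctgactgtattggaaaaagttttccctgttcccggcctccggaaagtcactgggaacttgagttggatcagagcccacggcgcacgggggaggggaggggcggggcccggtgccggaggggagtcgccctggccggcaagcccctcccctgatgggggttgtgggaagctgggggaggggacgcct
CCN2 (chr6:131951373-131951622, minus strand): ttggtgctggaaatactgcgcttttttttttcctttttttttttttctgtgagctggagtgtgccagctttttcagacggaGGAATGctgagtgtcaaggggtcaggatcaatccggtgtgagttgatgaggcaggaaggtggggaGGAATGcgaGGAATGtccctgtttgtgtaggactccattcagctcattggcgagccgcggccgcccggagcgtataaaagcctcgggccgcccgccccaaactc
Both strands were searched for GGAATG, which on the opposite strand reads CATTCC. YAP1 held 1 copy, which begins 162 bases before its start (chr11:102110285-102110290) and lies inside an RBBP4 region. CCN2 held 3 copies, which begin 169, 104 and 95 bases before its start, and the RBBP4 region nearest to that start lay 53.4 kb away. A single copy in the window of LATS2 lay just after its start (chr13:21061572-21061577). None was found in the windows of WWTR1, TEAD2, TEAD3 or LATS1. At least 1 copy stood in 3 of the 10 windows of these genes and in 12.2% of the 22199 windows of protein-coding genes, and 3 or more copies in 0.104% of the latter. A match says only that these letters are present.

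RBBP4 read density was higher after CSNK2B knockdown at 8 of the 10 genes: YAP1, WWTR1, all 4 TEAD genes, LATS2 and CCN1. The counts are of genes with a region at least 2-fold higher by log2 ratio. Among all 20037 protein-coding genes 45.4% held such a region, and among those of at least 20 kb, a length that 8 of the 10 genes reach, 55.8% did. Neither share was matched to the lengths of the 10 genes, which reach 208 kb at WWTR1 and 270 kb at TEAD1. The part of gene length in the counts was not tested. A listed RBBP4 region of any size stood at the same 8 genes and at 51.6% of protein-coding genes. Counted by region, 27 of 30 were at least 2-fold higher, where 64.9% of all listed RBBP4 regions were. Only WWTR1 held regions that were at least 2-fold lower, 3 in number, against 14.8% of protein-coding genes and 31.2% of listed regions. The median log2 ratio was 2.24 over the 30 regions and 1.49 over all listed ones, and over the higher regions alone 2.34 and 1.91.

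These regions were shallow. The median was 17.0 reads, both libraries added (8.00 to 67.0), close to the median of 19 over all listed regions, and 22 of the 27 higher ones had at most 3 reads in the control. The exact interval of the fold lay above 1 for 18 of the 27 higher regions and below 1 for all 3 lower ones. By the authors' deposited table, 18 of the 30 regions were higher and had adjusted p-values under 0.05, against 48.3% of listed regions, and 2 were lower and had them, against 8.94%. The RPKM of the 27 higher regions lay between 20.8 and 62.7 after knockdown and between 0 and 14 in the control, and that of the 3 lower ones between 0 and 2.80 after knockdown and between 32.2 and 48.7 in the control. The listing and the 2-fold limit chose the regions for such a gap. These ranges, and the counts of intervals and adjusted p-values above, are therefore a description and no separate support.

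**Figure D1:**
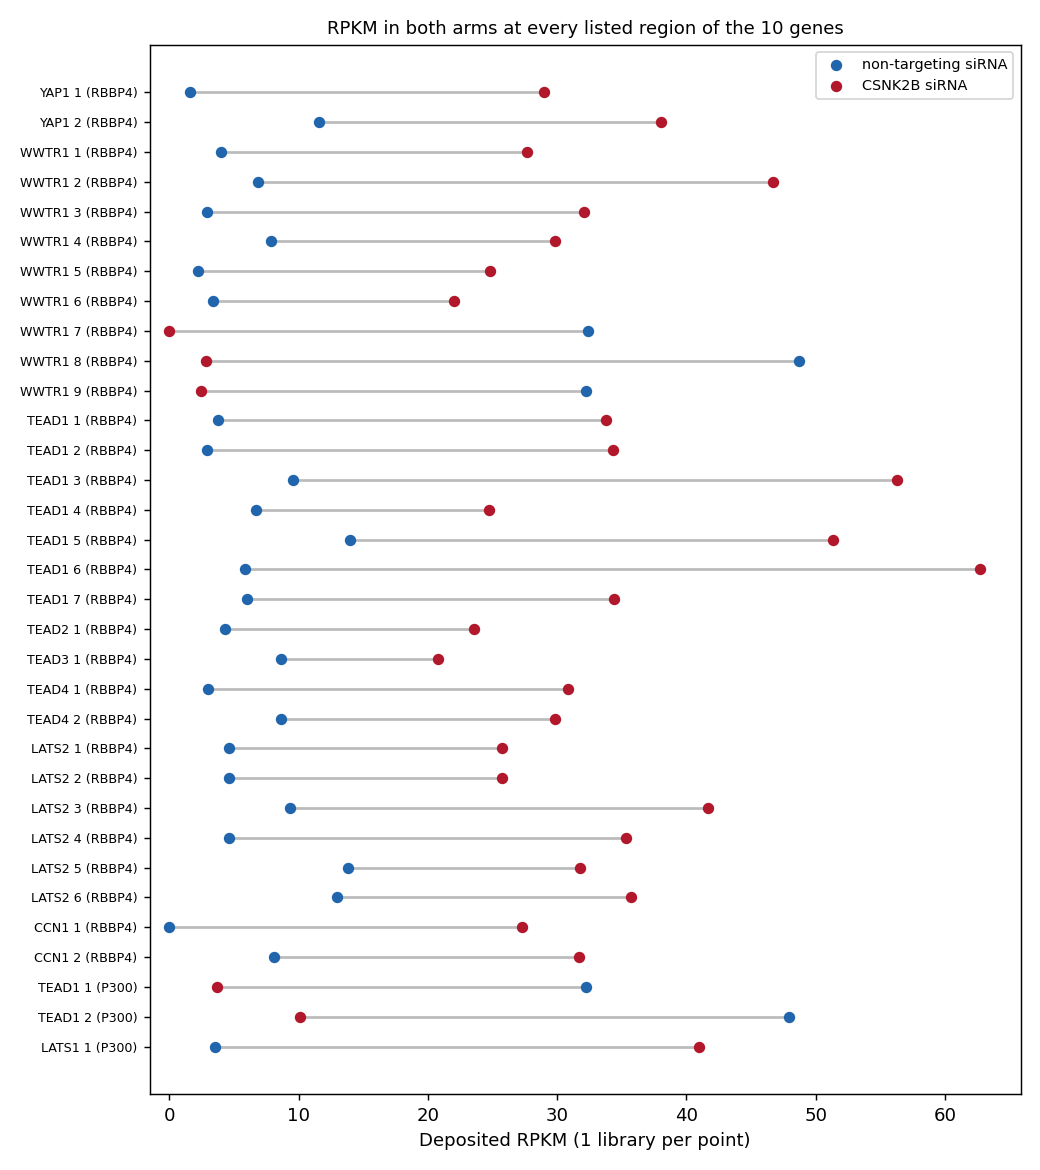
Deposited RPKM (horizontal axis) at each of the 33 listed regions of the 10 genes, 1 row per region numbered by position within its gene, with the non-targeting library in blue and the CSNK2B siRNA library in red. The red point lies to the right in all RBBP4 rows other than WWTR1 7 to 9, and to the left in both P300 rows of TEAD1.

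At YAP1, which encodes the coactivator YAP, both listed RBBP4 regions lay at the start of the gene. The first (chr11:102109789-102110529, 741 bp) covered the RefSeq start and the whole window printed above, TEAD motif included, and also the start of the divergent transcript YAP1-DT. RBBP4 density there was 29.0 RPKM after knockdown and 1.62 in the control, from 26 reads and 1 read. This is a 17.9-fold difference (2.95 to 735). In the authors' deposited table its adjusted p was 4.27e-05. The second region (chr11:102111290-102111703) began 843 bp inside the gene, with 38 against 11.6 RPKM, from 19 and 4 reads. It was 3.28-fold higher (1.09 to 13.2). For this one the adjusted p was 0.0276 in the authors' deposited table. No region was listed in the remaining length of this 123 kb gene.

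WWTR1, the gene of the YAP paralogue TAZ, held 9 RBBP4 regions in a span of 208 kb. Among protein-coding genes of any length 1.40% held 9 or more, and the share among genes of like length was not worked out. For the length of its span with flanks, WWTR1 held fewer RBBP4 regions than LATS2 and CCN1, and more than YAP1 and the TEAD genes. It was the 1 gene of the 10 with RBBP4 regions in both directions, and the directions were separated along the gene. The 6 higher regions lay at a RefSeq start or downstream of it, and the 3 lower ones lay upstream of that start (the gene is on the minus strand). Another RefSeq start of WWTR1 lies farther upstream, at chr3:149703273. Of the lower regions, chr3:149670070-149670365 lay between the starts, and the others lay upstream of both, inside the gene span. At the downstream start, the region chr3:149657572-149658627 covered the window printed above and part of the antisense gene WWTR1-AS1. It held 28 reads after knockdown and 3 in the control (22.0 and 3.41 RPKM), 6.44-fold higher (1.99 to 33.1). In the authors' deposited table its adjusted p was 3.30e-04. Of the 9, the most deeply covered (chr3:149602783-149603828) lay 54197 bp downstream of that start. There 59 reads stood against 6 (46.7 and 6.88 RPKM), a 6.78-fold difference (2.94 to 19.2). The authors' deposited table gave it an adjusted p of 5.18e-08. A narrow region beside it (chr3:149604147-149604558) had 16 reads against 1, as did chr3:149638483-149639016. The remaining higher regions, chr3:149528219-149528517 and chr3:149637815-149638120, had 10 against 1 and 11 against 2. Their intervals included 1 (0.981 to 299 and 0.828 to 35.2).

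Farther upstream in WWTR1 the direction turned. The region chr3:149670070-149670365, 12045 bp upstream of the covered start, had 0 knockdown and 8 control reads (0 and 32.4 RPKM). With the floor in place of 0 this is 3.87-fold lower, and the exact interval reaches down to 2.47-fold. At chr3:149718448-149718743 the counts were 1 and 12 (2.80 and 48.7 RPKM), 17.4-fold lower (2.57 to 744). Another region within 1 kb of it, chr3:149719320-149719654, had 1 read against 9. The first and second had adjusted p-values of 0.0463 and 0.0277 in the authors' deposited table, and the last 0.0890. All 3 had peaks called in the control arm and held 8 to 13 reads in all. The higher regions of WWTR1 held 11, 13, 17, 17, 31 and 65 reads.

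**Figure D2:**
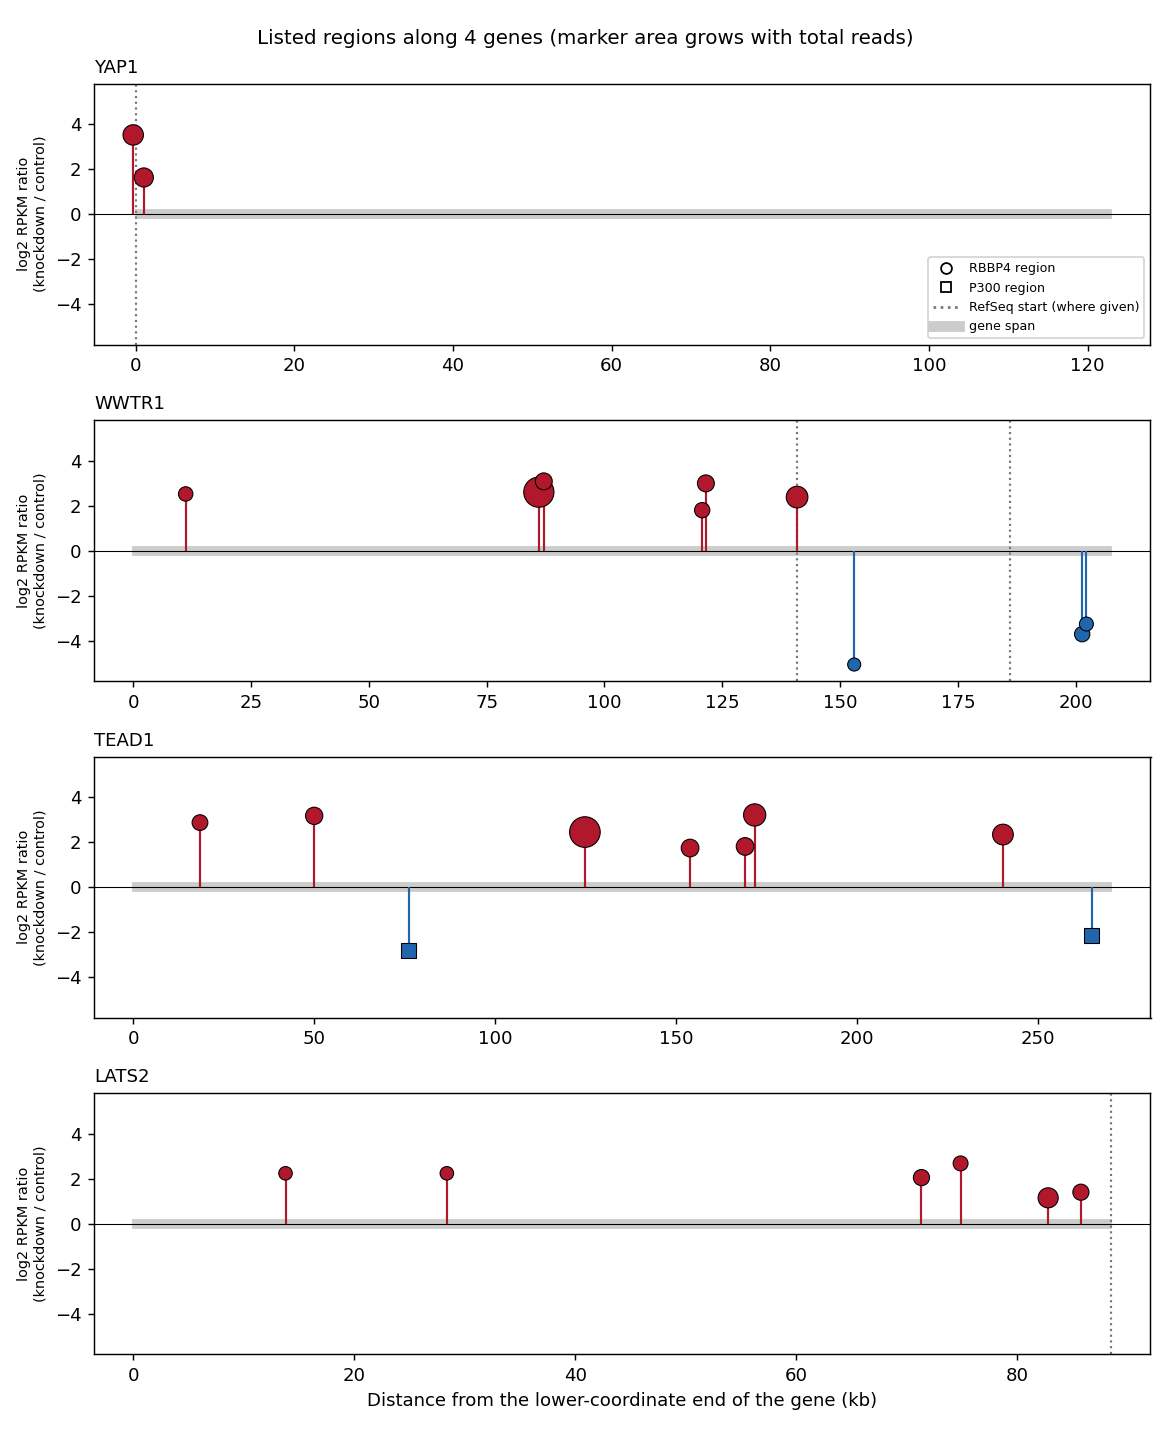
Listed regions along YAP1, WWTR1, TEAD1 and LATS2, by distance in kb from the lower-coordinate end of each gene, against the log2 RPKM ratio of knockdown over control (circles RBBP4, squares P300, area growing with total reads). In WWTR1 the regions change from red (higher) to blue (lower) past the start at which an RBBP4 region lies, and in TEAD1 the RBBP4 circles are all above 0 and the P300 squares below it.

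TEAD1, a DNA-binding factor through which YAP and TAZ act, held 7 RBBP4 regions in its 270 kb, all higher and all with adjusted p-values under 0.05 in the authors' deposited table. They lay inside the gene, none within 3000 bp of an end. The deepest (chr11:12798803-12799684) had 60 knockdown and 7 control reads (56.3 and 9.53 RPKM), 5.91-fold higher (2.70 to 15.3). The authors' deposited table gave it an adjusted p of 1.18e-07. The densest after knockdown (chr11:12845959-12846367) had 31 reads against 2 (62.7 and 5.87 RPKM), 10.7-fold higher (2.72 to 92.2). The other 5 had 13 to 25 reads after knockdown and 1 to 3 in the control, and their log2 ratios ran from 1.74 to 3.17. Summed over the 7, the counts were 178 and 20.

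The other TEAD genes, which encode factors with the same DNA-binding domain, held 4 RBBP4 regions between them. At TEAD4 a region that ended 224 bp outside the lower-coordinate end (chr12:2958771-2959173) had 15 knockdown and 1 control reads (30.8 and 2.98 RPKM), 10.3-fold higher (1.59 to 436). In the authors' deposited table its adjusted p was 0.00755. A second, 135 bp inside the same end (chr12:2959532-2959809), had 10 against 2, and its interval included 1 (0.735 to 32.4). At TEAD2 the region over the printed window (chr19:49361421-49361701) had 8 reads against 1 (23.6 and 4.27 RPKM), 5.52-fold higher (0.740 to 245). The region assigned to TEAD3 (chr6:35471464-35472020) lay 1577 bp beyond the downstream end of that gene and also within 3000 bp of RPL10A, a ribosomal protein gene. It had 14 reads against 4, 2.41-fold higher (0.758 to 10.1). The TEAD2 and TEAD3 regions and the second TEAD4 region each had 0.121 as adjusted p in the authors' deposited table, and the intervals of all 3 included 1.

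LATS2 and LATS1 encode the kinases that phosphorylate YAP and TAZ, and their listings had no antibody in common. LATS2 held 6 RBBP4 regions in 88.6 kb, all higher, with 72 reads after knockdown and 14 in the control summed over them. A pair had adjusted p-values under 0.05 in the authors' deposited table: chr13:21047808-21048065 with 11 reads against 1 (7.59-fold, 1.10 to 327) and chr13:21044266-21044523 with 13 against 2 (4.48-fold, 1.02 to 40.9). They lay 13.5 and 17.1 kb downstream of the RefSeq start. The region nearest that start, 2618 bp downstream, had 12 reads against 3, and its interval included 1 (0.745 to 15.2). The deepest (chr13:21055603-21056123) had 20 against 6, the lowest log2 ratio of the 6 at 1.15. Of the 6 regions, 4 were 258 bp wide, the narrowest width in the table. Among these, chr13:20986696-20986953 and chr13:21001300-21001557 each had 8 reads against 1, and their intervals included 1 (0.740 to 245 for each). LATS1 had no listed RBBP4 region, and the nearest one to its start, outside the gene, lay 28.3 kb away.

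CCN1 and CCN2 encode secreted matricellular proteins and are the usual readouts of YAP and TAZ activity. They are of like length, 3.19 and 3.20 kb, and differed in what was listed: 2 RBBP4 regions at CCN1 and none at CCN2. At the lower-coordinate end of CCN1 the region chr1:85579707-85581548, which also lay within 3000 bp of the neighbouring gene DDAH1, had 27.3 RPKM after knockdown and 0 in the control. These values did not give whole reads for the listed width of 1842 bp, and the deposited log2 values equalled those of 8 other regions with 25 reads against 0. With these counts and the floor in place of 0 the density was 5.75-fold higher, and the exact interval reaches down to 4.34-fold. The authors' deposited table gave it an adjusted p of 1.49e-05. The RPKM would belong to a region of 757 bp, so how far along the listed interval the reads lay is uncertain. A second region 260 bp beyond the other end (chr1:85584210-85584653) had 17 reads against 3 (31.7 and 8.11 RPKM), 3.91-fold higher (1.13 to 20.8). The RBBP4 region nearest to the CCN2 start (chr6:132004780-132005176), far outside the gene, had a log2 ratio of -2.85.

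**Figure D3:**
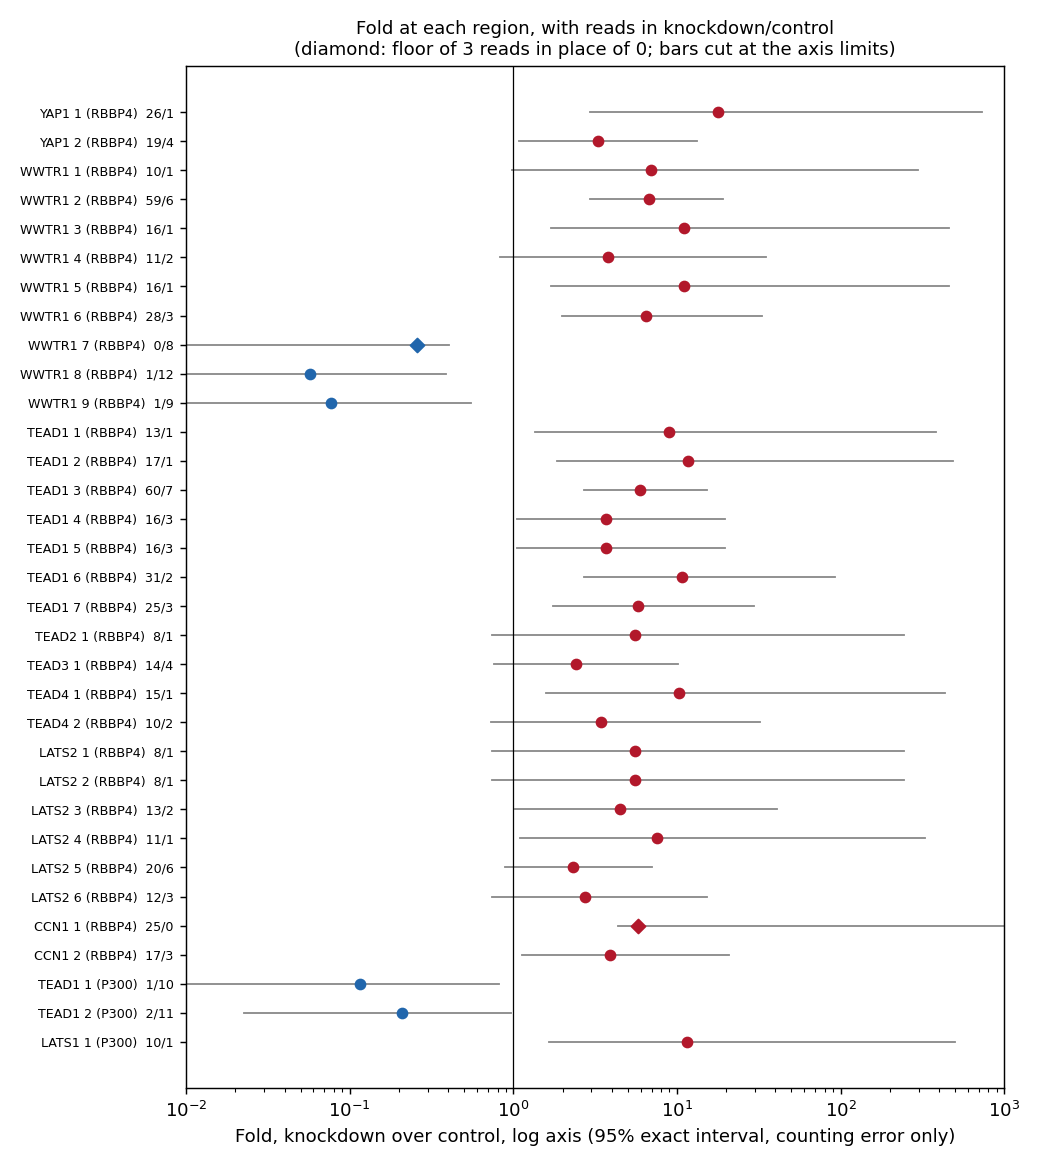
Fold of knockdown over control (log axis) at each of the 33 regions, from reads scaled to the totals, with 95% exact intervals for counting error and the reads of both arms beside each name. The intervals of 9 of the 27 higher RBBP4 regions reach below 1, and diamonds mark the regions at WWTR1 and CCN1 with 0 reads in 1 arm.

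The position of the RBBP4 regions varied between genes. Those of YAP1, TEAD2, TEAD4, CCN1 and TEAD3 lay within 3000 bp of a gene end, as did 1 of LATS2, 9 in all, and the other 21 lay farther inside. The median log2 ratio was 1.84 for the former and 2.34 for the latter. RefSeq promoter windows of the member genes were overlapped by a region at least 2-fold higher in 3 of 10 cases, near the 23.7% of windows of protein-coding genes. The annotation used gave gene spans and starts but no exons, so introns, exons and untranslated regions were not separated.

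Just outside the 3000 bp flank, 3 RBBP4 regions lay within 10000 bp of these genes. One stood 3022 bp from CCN1 with 29 reads after knockdown and 7 in the control, another 5009 bp from TEAD3 with 18 against 3, and one 6242 bp from TEAD1 with 2 against 11. The member regions farthest outside their genes were those of TEAD3 at 1577 bp and CCN1 at 260 bp.

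Around most of the genes, neighbouring RBBP4 regions were higher about as often as over the whole list, in which 64.9% were, with a median log2 ratio of 1.49. Within 1 Mb of each gene, leaving out its own regions, the share of RBBP4 regions at least 2-fold higher ran from 42.9% around TEAD4 to 94.6% around TEAD2. Around TEAD4 the median log2 ratio of 14 such neighbours was -2.49, while both regions at the gene were higher. For TEAD2 the 56 neighbours had a median of 2.58, above the 2.22 of its own region. For YAP1 the neighbours had a median of 1.65 over 23 regions, for WWTR1 1.3 over 21, for TEAD1 1.38 over 25, for LATS2 1.27 over 23 and for CCN1 1.40 over 32. The library with fewer reads held 3.55 to 7.43 reads per kb in these neighbourhoods and 6.58 over all listed regions.

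P300 regions were listed at TEAD1 and LATS1 only, and none of the 3 had adjusted p-values under 0.05 in the authors' deposited table, where no P300 region did (the lowest value was 0.260). A P300 region at least 2-fold higher was present at 1 of 10 genes, against 11.5% of protein-coding genes, and one at least 2-fold lower at 1 of 10, against 17.5%. By region, 1 of 3 was higher and 2 were lower, where 34.7% and 64.3% of listed P300 regions were. Both TEAD1 regions were lower. At chr11:12750405-12750688 the P300 library had 1 knockdown and 10 control reads (3.72 and 32.2 RPKM), 8.66-fold lower (1.23 to 376). At chr11:12939161-12939370 it had 2 against 11 (10.1 and 47.9 RPKM), 4.76-fold lower (1.04 to 44.2). They lay 25.8 and 24.1 kb from the nearest RBBP4 region of the gene, so the antibodies differed in direction at separate places. Genes with higher RBBP4 and lower P300 regions and none in the opposite directions made up 4.57% of protein-coding genes. Inside LATS1 the region chr6:149681818-149682075 had 10 reads against 1 (41.0 and 3.55 RPKM), 11.5-fold higher (1.64 to 501), among 10 P300 neighbours within 1 Mb of which 9 were lower.

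Other genes of the pathway were taken as a list of 54 upstream kinases, scaffolds, regulators and TEAD cofactors. For RBBP4, 39 of the 54 had a region at least 2-fold higher and 17 one at least 2-fold lower, several genes holding both, against 45.4% and 14.8% of protein-coding genes and 55.8% and 24.5% of those of at least 20 kb. By adjusted p-values under 0.05 in the authors' deposited table, 34 had a higher and 8 a lower region, against 38.3% and 5.60% of protein-coding genes. The median log2 ratio of their 119 regions was 1.65. FRMD6, a FERM-domain activator of the pathway, had 14 higher regions, the deepest with 108 reads after knockdown and 14 in the control (5.32-fold, 3.04 to 10.1). At PATJ, a cell polarity scaffold, the counts were 69 and 6 (7.93-fold, 3.46 to 22.4), at MAP4K3, a kinase of the MAP4K family, 71 and 12 (4.08-fold, 2.2 to 8.27), and at BTRC, the ubiquitin ligase subunit that recognises phosphorylated YAP, 75 and 20 (2.59-fold, 1.56 to 4.47). Lower were STK4, the upstream kinase MST1, with 5 against 25 (7.25-fold, 2.73 to 24.2), and MOB1B, a coactivator of LATS kinases, with 4 against 18 (6.52-fold, 2.15 to 26.5). All 4 genes named as higher also held lower regions, at MAP4K3 and BTRC with 12 against 28 and 5 against 17 reads, and MOB1B also held a higher one. Among the 11 genes with neither were the cofactors VGLL1, VGLL2 and VGLL3, while the cofactor VGLL4 held RBBP4 regions in both directions.

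Of 19 further YAP and TAZ target genes, 15 (78.9%) had an RBBP4 region at least 2-fold higher, and 2 (10.5%) one at least 2-fold lower. The shares were the same 45.4% and 14.8% among protein-coding genes, and 55.8% and 24.5% among those of at least 20 kb. Neither this list nor the one above was matched to these genes for length. With adjusted p-values under 0.05 in the authors' deposited table, 14 targets had a higher and 1 a lower region, beside 38.3% and 5.60% of protein-coding genes. AMOTL2 and PTPN14 stand in this list and in the one above. Their 47 regions had a median log2 ratio of 2.07. MYOF, a membrane repair protein, had 37 reads against 6 (4.25-fold, 1.78 to 12.3), ASAP1, a GTPase-activating protein, 41 against 6 (4.71-fold, 1.99 to 13.6), and DOCK5, a guanine nucleotide exchange factor, 29 against 4 (5.00-fold, 1.76 to 19.6). A listed region of 1114 bp covered the start of IGFBP3, an insulin-like growth factor binding protein. Its counts, taken from the deposited log2 values, were 32 and 4 (5.52-fold, 1.96 to 21.5). The RPKM did not go with the listed width and would belong to 368 bp, so where in that region the reads lay is uncertain. The lower regions with most reads, at CCDC80 and DOCK5, had 4 against 14 each. Both had an adjusted p of 0.121, per the authors' deposited table. DOCK5 held more lower than higher RBBP4 regions, 3 against 2. ANKRD1, FJX1, FOXF2 and NUAK2 had no region that differed at least 2-fold.

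**Figure D4:**
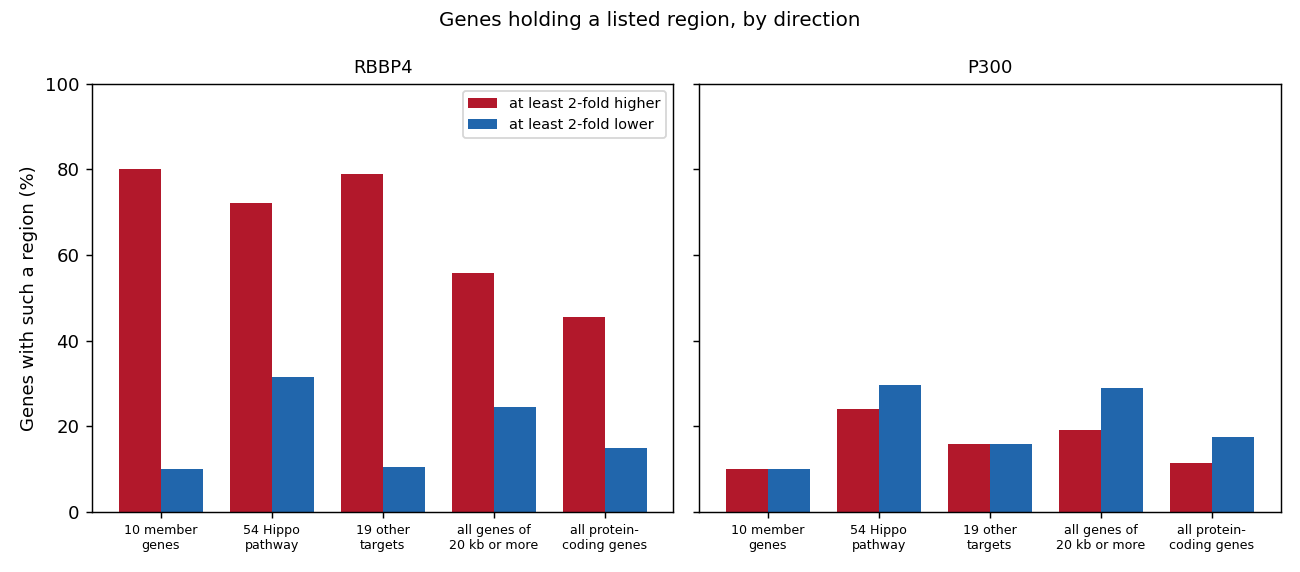
Share of genes (vertical axis, %) that hold a region at least 2-fold higher (red) or lower (blue) after knockdown, for the 10 genes, the 54 other pathway genes, the 19 further targets, all protein-coding genes of at least 20 kb and all protein-coding genes. For RBBP4 the red bars of the 3 gene groups stand at 72.2% to 80.0% against 55.8% and 45.4%, and for P300 the 10 genes stand at 10.0% in both directions. Beyond the 20 kb limit the groups were not matched for gene length.

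P300 regions at these further genes went both ways. Of the 54 pathway genes 13 (24.1%) had one at least 2-fold higher and 16 (29.6%) one at least 2-fold lower, and of the 19 targets 3 (15.8%) in each direction. Among protein-coding genes the shares were 11.5% higher and 17.5% lower, and among those of at least 20 kb 19.0% and 29.0%, so these counts lay near the background. STK4 had 13 knockdown and 1 control reads inside the gene (15.0-fold higher, 2.25 to 638), and WWC3, a LATS-binding scaffold, 15 against 3 near an end (5.77-fold, 1.63 to 31.1). AXL, a receptor tyrosine kinase, had 26 against 9 at a region 1118 bp from its start (3.34-fold, 1.51 to 8.09). The deepest higher P300 regions of the targets RBMS3 and PTPN14 had 16 against 2 and 11 against 1. Lower P300 regions included MAP4K3, with 7 against 20 (2.47-fold, 1.01 to 6.93), and 7 regions of DLG1, a polarity scaffold, the deepest with 5 against 13 (2.25-fold, 0.753 to 8.07). At the targets RBMS3, MYOF and ASAP1 the deepest lower ones had 5 against 14, 4 against 13 and 3 against 12. All 3 of these intervals included 1.

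Among the other CCN genes, CCN3 and CCN5 held RBBP4 regions, all higher, and CCN4 and CCN6 had none. CCN5 had 4, the deepest with 49 reads against 5 (6.76-fold, 2.71 to 21.7). At the lower-coordinate end of CCN3 the counts were 227 and 61 (2.57-fold, 1.93 to 3.46), and a P300 region within that interval had 11 against 2 (6.35-fold, 1.39 to 59.0). CCN3 lies on chromosome 8 where RBBP4 density was raised in both arms, at 73.8 reads per kb in the library with fewer reads, and 14 of its 23 neighbouring RBBP4 regions were at least 2-fold higher, with a median log2 ratio of 1.12. The part of that stretch in the CCN3 value was not tested.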

How the data were processed

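Chromatin immunoprecipitation sequencing of NCI-H69 cells was analysed from 2 deposited tables, 1 per antibody. Cells were fixed with 1% formaldehyde for 10 min and sequenced as paired 150 bp reads, per the labels' protocols. The build GRCh38 and the tools Bowtie2 2.4.5, ChIPseeker 1.28.3, DiffBind 3.4.11, FastQC, MACS2 2.2.7.1 and Trim Galore 0.6.7 are named in the submitters' processing notes, without their roles. The RPKM per region, the log2 fold change, the mean log2 CPM, the p-value and the adjusted p-value are the authors' deposited values, per the file headers.

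The product of RPKM and width was a whole number of reads (tolerance 0.01) in 98.3% of RBBP4 and 99.4% of P300 regions. For 551 and 118 others the reads were taken from whole regions with the same deposited log2 values, and 45 and 13 were not recovered. That the totals found stand for all tested regions is an unchecked assumption. Differences were log2(RPKM + 1), called at 2-fold, with no test, since each arm had 1 library. The authors' log2 fold change lay above the log2 RPKM ratio by a median of 0.56 for RBBP4 and was shifted by -0.39 for P300. Genes, starts and promoter windows came from RefSeq (GRCh38.p14), and all 77 list genes matched a symbol. The 10 genes and the lists were chosen with earlier results of these data known. All member regions are described, some of those at TEAD1 as a range. Of each list, genes are named from among the up to 4 with most reads per antibody and direction. The length class of 20 kb and the neighbours outside the flank were chosen after the values were seen. Recovery of reads from RPKM and width was tested on simulated data. Folds and their intervals were tested there only at counts far above those of the member regions. Taking reads from matching log2 values, as at CCN1 and IGFBP3, was not part of that test. Python 3.11.15, numpy 2.4.6, pandas 2.3.3 and scipy 1.17.1 were used. Alternatives were the flank, overlap, fold, pseudocount, the authors' deposited log2 fold change in place of the RPKM ratio, a minimum of 20 reads and the authors' adjusted p.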

Additional observations from a re-analysis of the deposited data

How the results depend on the processing

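Higher RBBP4 density was counted at 8 of the 10 genes, and at 6 to 8 with flanks of 0, 1000 or 10000 bp, a 50% overlap, a 4-fold limit, a pseudocount of 0.1, the log2 fold change or the adjusted p of the authors' deposited table. With at least 20 reads 5 genes were left. The count of 1 gene with a lower RBBP4 region became 2 with a flank of 10000 bp and 0 with at least 20 reads. The median log2 ratio over RBBP4 regions, 2.24, became 2.44 with a pseudocount of 0.1, 2.89 with the log2 fold change of the authors' deposited table and 2.41 with at least 20 reads. For P300 the counts of 1 gene higher and 1 lower both became 2 with a flank of 10000 bp, 0 by the authors' adjusted p and 0 with at least 20 reads. The P300 median, -2.15, became -1.14 with that flank and -2.62 with the log2 fold change of the authors' deposited table, and had no value with at least 20 reads. Fewer regions enter with a read minimum and more with a wider flank. For the other changes the cause was not tested. All 66 values of single regions under another pseudocount or taken as the authors' deposited log2 fold change kept their direction and lay within the exact interval. No paired analysis was possible because each antibody and arm had 1 library. Depth limits these results, with a median of 17.0 reads per RBBP4 region over both libraries.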
